A study of Homo sapiens with 6 samples.

Results

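The 43 genes described here encode cyclins, cyclin-dependent kinases (CDKs) and CDK inhibitors. They are the rows of the deposited table of 58735 genes whose symbol equals a name on a fixed list of such genes, and all 43 names were found. The libraries are polyadenylated RNA of cells labelled SW1990, a human pancreatic ductal adenocarcinoma line, in 2 groups of 3. Treated cells received EPZ-5676 at 5 µM, a small molecule that inhibits the histone H3 methyltransferase DOT1L. Control cells are called untreated in the sample characteristics, whereas the treatment protocol says that they received the solvent DMSO. How long the cells were treated was not stated. Separate cultures are not named for the replicates either, so the p-values measure spread between libraries that may be technical repeats. The comparison asks how transcript levels differ between inhibited and control cells.

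A CDK is a protein kinase that is inactive until a cyclin binds it. D-type cyclins with CDK4 or CDK6 act in G1, cyclin E with CDK2 at entry into S phase, cyclin A with CDK2 and CDK1 through S and G2, and cyclin B with CDK1 in mitosis. Inhibitors of the INK4 family bind CDK4 and CDK6, and those of the CIP/KIP family bind cyclin-CDK complexes more broadly. Other members of the family act outside the division cycle: cyclins C, H, K and L and their kinases phosphorylate RNA polymerase II or act within Mediator and splicing complexes. Levels of the S, G2 and M members follow the share of dividing cells, so in these bulk RNA samples fewer cells in those phases and less mRNA per cell cannot be told apart.

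Library totals ran from 33970420 to 39749648 reads. Treated replicate 1 stood apart on the second principal component of the 500 most variable genes (20.3% of the variance), at 17.8 against -18.9 and -14.1 for the other treated libraries. The first component (35.4%) separated the groups, with the controls at -19.8, -11 and -14.2. On it treated replicate 1 was the farthest from the controls, at 28.4 against 9.69 and 6.84 for treated replicates 2 and 3. The members took 0.381% to 0.395% of the reads in the controls and 0.372% to 0.381% in the treated libraries. Of 10 ductal and epithelial marker genes, KRT7, KRT8, KRT18, CLDN4 and MUC1 were expressed, with control means of 1880, 2660, 1190, 91.3 and 32.8 CPM, read counts per library scaled to a common sequencing depth. CDH1 and CEACAM6, however, had 0 reads in all 6 libraries, and KRT19 (0.430 CPM), EPCAM (1.89 CPM) and LCN2 (0.741 CPM) were near 0 in the controls. These 5 defining markers thus go against the label, and the identity of the cells was not tested. The summed level of 9 fibroblast markers was 89.8 to 96.0 CPM in the controls and 96.0 to 102 CPM in the treated libraries, mostly COL1A1 and DCN; 9 immune markers summed to at most 10.5 CPM and 5 endothelial markers to at most 3.25 CPM. KRT8, KRT18, CLDN4 and COL1A1 were called higher and DCN lower in the treated libraries, and the part of these levels in the results below was not tested.

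Of the 43 members, 42 had enough reads to be tested. Of these 8 were higher and 18 lower in treated cells and 16 were not called (edgeR's quasi-likelihood F test, with p adjusted over 15496 genes by the Benjamini-Hochberg method and a threshold of 0.05). Among all genes tested, 15.0% were called higher and 18.7% lower. The median log2 fold change was -0.35 over the members and -0.05 over all genes. No overlap between groups was seen for 10 members that were higher and 20 that were lower in all treated libraries, against 21.8% and 24.2% of all genes. When 1 library was left out, 12 of the 18 lower calls and 1 of the 8 higher (CDKN1A) held in all 6 such fits. The same share was not counted over all genes, so these counts show nothing particular to the members. Without treated replicate 1, 2 members were called higher and 14 lower, against 8.43% and 11.8% of all genes, and the member median was -0.31.

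Log2 fold changes rose with transcript GC content, both for the members (Pearson r = 0.81, Spearman rho = 0.82 over 42 genes) and for all genes (0.59 and 0.66 over 15487 genes). These correlations are across genes, which share the same 6 libraries and are not independent replicates. All 7 members with a GC content under 40% were called lower, as were 48.7% of all genes in that range. Between 40% and 45% it was 8 of 13 members against 39.1% of genes, and between 45% and 50% 2 of 5 against 16.7%. From 50% to 55% 2 of 6 members were higher against 12.9% of genes, and from 55% to 60% 5 of 8 against 29.4%. At 60% or more the order was reversed, with 1 of 3 members higher against 47.9% of genes. A fit in which smooth trends with GC content and transcript length were removed from each library, called the correction below, left 1 member higher and 9 lower, against 5.40% and 5.57% of all genes. The median over the members was then -0.07, and 9 of the 26 calls stood in the same direction. Over all genes, 1113 of the 2326 higher and 2899 lower calls did so. Such a correction takes out treatment effects along GC content or length as well, and the part of sequencing or library preparation in the trend was not tested.

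**Figure D1:**
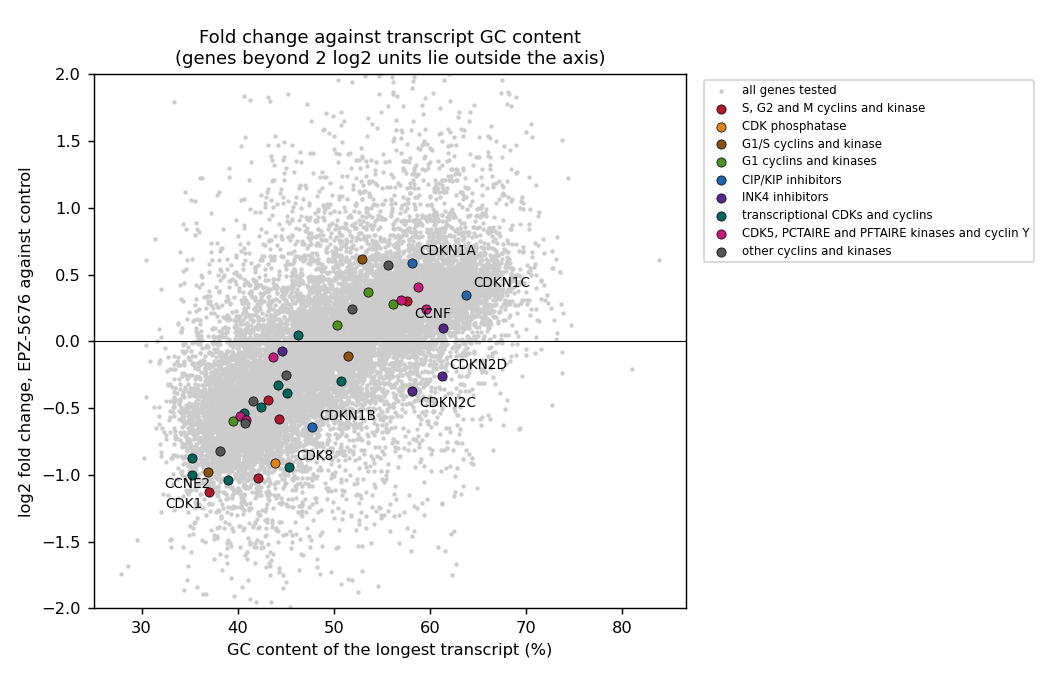
Log2 fold change of EPZ-5676 against control (vertical axis) plotted against the GC content of each gene's longest transcript in percent (horizontal axis), for all genes tested (grey) and the 42 tested members (coloured by role). Members rise with GC content as the whole cloud does. Several lie under its slope, among them CDK1, CDK8, CDKN1B, CDKN2C and CDKN2D.

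The promoters of the genes of S, G2 and M phase and of CDKN3 are shown because these genes are known to be switched on together late in the cell cycle. Their promoters often hold a CCAAT box, bound by NF-Y, and a cell cycle genes homology region (CHR), bound by the MuvB complex. Of the 43 members, 38 matched the RefSeq promoter table (GRCh38.p14); CCND1, CCND2, CCNE2, CDK2 and CDKN1C did not. Each line gives the 250 bases before the RefSeq start, 5′ to 3′ on the gene's strand, with matches to CCAAT (the CCAAT box) and to TTTGAA or to its variant TTCGAA (the CHR), read on either strand, in capitals. No match overlapped another in these windows.
CDK1, chr10:60778081-60778330, plus strand: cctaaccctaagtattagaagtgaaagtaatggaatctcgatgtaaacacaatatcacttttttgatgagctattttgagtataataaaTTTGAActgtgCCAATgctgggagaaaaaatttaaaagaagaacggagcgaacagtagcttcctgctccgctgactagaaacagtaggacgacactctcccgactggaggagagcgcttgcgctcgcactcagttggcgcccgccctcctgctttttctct
CCNA2, chr4:121823884-121824133, minus strand: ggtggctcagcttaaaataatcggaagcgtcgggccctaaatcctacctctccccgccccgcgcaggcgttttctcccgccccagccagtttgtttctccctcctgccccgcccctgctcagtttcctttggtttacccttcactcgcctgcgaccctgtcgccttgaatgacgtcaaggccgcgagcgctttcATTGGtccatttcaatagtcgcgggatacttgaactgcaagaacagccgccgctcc
CCNB1, chr5:69166900-69167149, plus strand: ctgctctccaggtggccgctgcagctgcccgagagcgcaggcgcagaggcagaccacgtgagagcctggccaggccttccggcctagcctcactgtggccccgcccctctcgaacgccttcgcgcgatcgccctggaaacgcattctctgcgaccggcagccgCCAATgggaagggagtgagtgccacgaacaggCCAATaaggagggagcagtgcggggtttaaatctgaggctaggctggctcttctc
CCNB2, chr15:59104896-59105145, plus strand: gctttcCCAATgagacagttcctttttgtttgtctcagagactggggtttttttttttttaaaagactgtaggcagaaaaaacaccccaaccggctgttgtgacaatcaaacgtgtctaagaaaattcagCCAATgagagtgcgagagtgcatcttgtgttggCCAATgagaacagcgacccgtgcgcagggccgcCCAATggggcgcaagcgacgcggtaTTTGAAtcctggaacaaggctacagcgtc
CCNF, chr16:2429197-2429446, plus strand: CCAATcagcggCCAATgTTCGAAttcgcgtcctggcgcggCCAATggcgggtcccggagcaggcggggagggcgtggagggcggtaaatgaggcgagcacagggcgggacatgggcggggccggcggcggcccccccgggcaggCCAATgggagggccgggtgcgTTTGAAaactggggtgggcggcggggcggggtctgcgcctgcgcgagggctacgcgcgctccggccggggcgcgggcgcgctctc
CDKN3, chr14:54396757-54397006, plus strand: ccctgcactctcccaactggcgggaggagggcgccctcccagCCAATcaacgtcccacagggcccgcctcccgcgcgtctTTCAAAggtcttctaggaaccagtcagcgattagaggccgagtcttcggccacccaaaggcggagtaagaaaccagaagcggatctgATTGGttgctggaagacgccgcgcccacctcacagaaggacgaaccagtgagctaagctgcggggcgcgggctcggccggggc

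In the full window of 250 bases before and 50 after the start, all 6 of these promoters held CCAAT, which 16 of the 38 matched members and 35.7% of 27305 promoters held. TTTGAA was present in 4 of the 6 (CDK1, CCNB2, CCNF and CDKN3) and in 15.4% of all promoters. Over the 38 matched members it was present in 6, a share near that of all promoters, with CCNC and CDK19 as the others. TTCGAA was present only in that of CCNF among the matched members (1.45% of all promoters). No other form of the CHR was searched, so promoters without these words are not shown to lack one. CCNB2 carried 4 copies of CCAAT, at -244, -120, -87 and -54, and TTTGAA at -29, counted back from the base before the start. CCNF carried 4 CCAAT copies as well. Of 3 forms of the E2F site searched on both strands, TTTCGCGC was found for CDK1 and CDK10 (0.546% of all promoters), TTTCCCGC for CDK19 (1.66%), and TTTGGCGC for none of the matched members (0.659%). Starts differ between annotations: the deposited gene models of CCNA2, CCNB1, CCNB2, CCNF and CDKN3 begin 50, 140, 68, 53 and 158 bases before the RefSeq start. A match to a word is a description of the sequence and not evidence of a bound site.

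Among the 5 cyclins and kinase of S phase, G2 and mitosis, 4 fell and 1 rose. Of all genes tested, 18.7% were called lower and 15.0% higher. CDK1 (ENSG00000170312, chromosome 10, 60778331 to 60794852, GRCh38), the kinase that drives entry into mitosis, measured 142, 93.9 and 115 CPM in control libraries, against 45.1, 56.3 and 58.3 CPM after EPZ-5676. The highest treated library was well under the lowest control, and the log2 fold change of -1.13 ± 0.13 (SE; edgeR adjusted p = 1.7e-05) was the largest of any member. CCNA2 (ENSG00000145386, chromosome 4, 121816444 to 121823933) encodes cyclin A2, which acts in S phase and G2. It measured 94.0, 75.7 and 87.1 CPM in control libraries, against 35.7, 42.3 and 48.6 CPM after EPZ-5676, a log2 fold change of -1.02 ± 0.12 (edgeR adjusted p = 2.3e-05). The groups of both genes were separate, treated replicate 1 was the lowest library for both, and both were called lower after the correction too (-0.57 ± 0.09 for CDK1 and -0.59 ± 0.09 for CCNA2), also without any single library.

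The B cyclins, the partners of CDK1 in mitosis, fell by less. CCNB1, the more abundant per length (78.5 against 33.4 RPKM, CPM per kilobase of exons, in the controls), measured 217, 191 and 195 CPM in control libraries, against 140, 152 and 153 CPM after EPZ-5676 (-0.44 ± 0.10, edgeR adjusted p = 0.00245). CCNB2 measured 92.1, 93.6 and 95.3 CPM in control libraries, against 59.6, 63.0 and 65.4 CPM after EPZ-5676 (-0.58 ± 0.10, edgeR adjusted p = 0.000413). The controls of CCNB2 were tight, and no treated library came near them. After the correction CCNB1 was not called (-0.06 ± 0.07, edgeR adjusted p = 0.686). CCNB2 was (-0.27 ± 0.08, edgeR adjusted p = 0.0411), but that call was lost without any library other than control replicate 1 (edgeR adjusted p up to 0.15). The ratio of CCNB1 to CCNB2 reads, which needs no scaling between libraries, was 2.15 ± 0.182 in the controls and 2.37 ± 0.0340 in the treated libraries (mean ± SD, n = 3 each), and the groups overlapped.

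CDKN3, a phosphatase that removes the activating phosphate from CDKs, fell with these genes. Its level was 32.8, 29.7 and 29 CPM without the inhibitor, against 13.6, 17.7 and 17.2 CPM with it, with no overlap (-0.91 ± 0.15, edgeR adjusted p = 0.000214). The fall held after the correction (-0.55 ± 0.12, edgeR adjusted p = 0.00379). CCNF moved the other way. It encodes cyclin F, which binds no CDK and serves as an F-box subunit of a ubiquitin ligase. CCNF measured 49.2, 60.5 and 56.7 CPM in control libraries, against 71.9, 66.5 and 66.7 CPM after EPZ-5676 (0.30 ± 0.11, edgeR adjusted p = 0.0397). Its transcript is the most GC-rich of the 5 S, G2 and M genes (57.6%, against 37.0% for CDK1), and the call was lost after the correction (0.03 ± 0.08, edgeR adjusted p = 0.864) and without any library other than control replicate 2 (edgeR adjusted p up to 0.139).

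**Figure D2:**
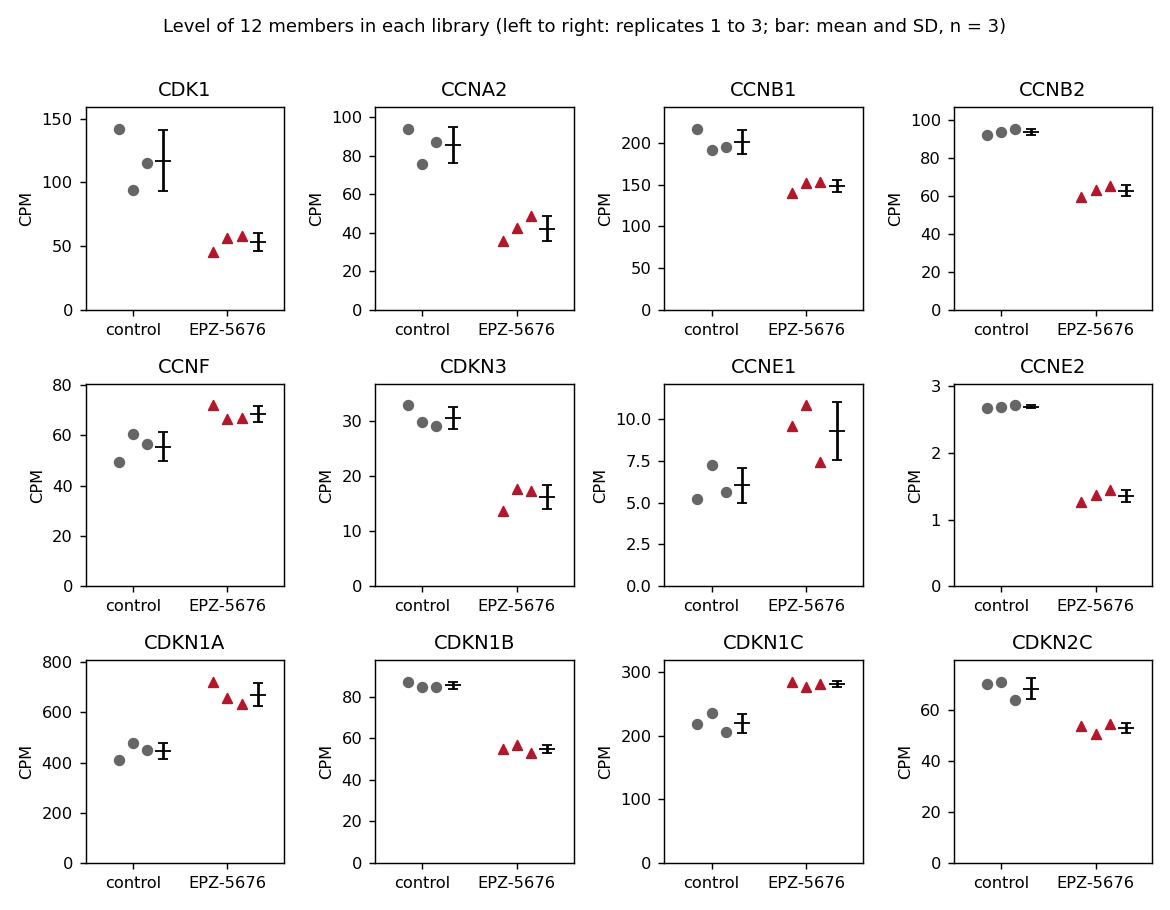
Level in CPM (vertical axis from 0) of 12 members in each control library (grey circles) and each EPZ-5676 library (red triangles), with the mean and SD of each group of 3 in black. The 12 panels show no overlap between groups, with CDK1, CCNA2 and CDKN3 lower and CDKN1A higher in the treated libraries. All 12 are called members, and members with overlapping groups, such as CCND1, CDK2 and CDKN2A, are not shown. Among all genes tested, 21.8% were higher and 24.2% lower without overlap.

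At the entry into S phase the E cyclins moved apart. CCNE1 (ENSG00000105173) measured 5.21, 7.21 and 5.63 CPM in control libraries, against 9.56, 10.8 and 7.41 CPM after EPZ-5676 (0.62 ± 0.21, edgeR adjusted p = 0.0267). The highest control was only just under the lowest treated library. CCNE2 (ENSG00000175305), the less abundant paralog per length (0.611 against 2.36 RPKM in the controls), measured 2.67, 2.69 and 2.71 CPM in control libraries, against 1.26, 1.37 and 1.44 CPM after EPZ-5676 (-0.98 ± 0.31, edgeR adjusted p = 0.0202). Within each library, the CCNE1/CCNE2 read ratio was 1.95, 2.68 and 2.08 in control libraries, against 7.62, 7.90 and 5.14 after EPZ-5676. The ratio was thus higher in every treated library than in any control, by 1.61 on the log2 scale, and the fitted difference between these genes was 0.95 after the correction. Neither gene was called after it (edgeR adjusted p = 0.0820 for CCNE1 and 0.417 for CCNE2). CCNE1 was not called without control replicate 1 or 3 or treated replicate 1 or 2 (up to 0.132), and CCNE2 not without control replicate 1 or 3 or treated replicate 1 (up to 0.0601). CCNE2 lies among genes of the opposite strand with more reads (INTS8, 3676 reads in all against 445). CDK2, the kinase of both cyclins, measured 61.2, 64.1 and 63.6 CPM in control libraries, against 53.5, 62.6 and 58.5 CPM after EPZ-5676. These groups overlapped, and CDK2 was not called (-0.11 ± 0.11, edgeR adjusted p = 0.443).

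Of the 5 genes of G1, 4 were tested. CDK4 and CCND3 were called higher and CDK6 lower, against 15.0% higher and 18.7% lower among all genes. CDK4 measured 149, 164 and 147 CPM in control libraries, against 218, 188 and 187 CPM after EPZ-5676 (0.37 ± 0.10, edgeR adjusted p = 0.00908). CDK6, which shares its cyclins and inhibitors, measured 7.90, 7.96 and 10.5 CPM in control libraries, against 5.02, 7.84 and 4.53 CPM after EPZ-5676 (-0.60 ± 0.23, edgeR adjusted p = 0.0461). Treated replicate 2 of CDK6 nearly touched the controls. Per length, CDK4 stood at 48.5 and CDK6 at 0.715 RPKM in the controls, so CDK4 was by far the more abundant of these kinases. The CDK4/CDK6 read ratio was 18.9, 20.7 and 14.1 in control libraries, against 43.5, 24.0 and 41.3 after EPZ-5676. After the correction neither was called (0.22 ± 0.08 for CDK4 and -0.05 ± 0.21 for CDK6; edgeR adjusted p = 0.0609 and 0.903). The call of CDK4 was also lost without treated replicate 1 (0.0520), and that of CDK6 without any library other than control replicate 2 or treated replicate 2 (up to 0.224).

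The D cyclins, which link growth signals to CDK4 and CDK6, were CCND3 and CCND1 in these cells. CCND3 measured 107, 127 and 120 CPM in control libraries, against 159, 136 and 133 CPM after EPZ-5676 (0.28 ± 0.11, edgeR adjusted p = 0.0461). That call was near the threshold, was lost without any library other than control replicate 2 (up to 0.215), and was lost after the correction (0.04 ± 0.08, edgeR adjusted p = 0.805). CCND1 measured 41.1, 42.6 and 43 CPM in control libraries, against 47.6, 42.4 and 47.7 CPM after EPZ-5676. Its groups overlapped, and it was not called (0.12 ± 0.11, edgeR adjusted p = 0.446). CCND2 had 0 reads in all 6 libraries. A count of 0 allows up to 3 reads, or 0.0754 to 0.0966 CPM per library, a limit that covers counting error only.

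The CIP/KIP inhibitors did not move as 1 group: CDKN1A and CDKN1C rose and CDKN1B fell. CDKN1A (ENSG00000124762, chromosome 6, 36676460 to 36687339) encodes the inhibitor p21, a target of p53. Its level was 412, 476 and 448 CPM without the inhibitor, against 722, 657 and 633 CPM with it (0.59 ± 0.10, edgeR adjusted p = 0.000357). Every treated library was well above every control. After the correction the rise was 0.30 ± 0.07 (edgeR adjusted p = 0.00914), a call lost only without treated replicate 2 among the 6 libraries (0.0506). It was the only member still called higher after the correction.

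CDKN1B (ENSG00000111276, chromosome 12, 12715058 to 12722371) encodes p27, the inhibitor that restrains cyclin E with CDK2 in resting cells. It measured 87.3, 84.7 and 84.6 CPM in control libraries, against 54.7, 56.7 and 53.1 CPM after EPZ-5676 (-0.64 ± 0.10, edgeR adjusted p = 0.000211). Both groups were tight and separate, and the correction changed the value little (-0.51 ± 0.08, edgeR adjusted p = 0.000297). The CDKN1A/CDKN1B read ratio was 4.71, 5.62 and 5.29 in control libraries, against 13.2, 11.6 and 11.9 after EPZ-5676, so it was higher in all treated libraries. The log2 difference of 1.23 was 0.81 after the correction. CDKN1C, which encodes p57 and is expressed from the maternal allele, measured 219, 236 and 206 CPM in control libraries, against 285, 276 and 282 CPM after EPZ-5676 (0.35 ± 0.10, edgeR adjusted p = 0.00878). Its transcript had the highest GC content of all members (63.8%). CDKN1C was not called after the correction, where its sign turned (-0.07 ± 0.08, edgeR adjusted p = 0.604), nor without control replicate 3 (0.0525).

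Of the 4 INK4 inhibitors, CDKN2C was called lower and the others were not called, while 18.7% of all genes were called lower. CDKN2A was the most abundant member per length in the controls, at 188 RPKM against 146 RPKM for CDKN1A. In the treated cells it stood at 202 RPKM, under CDKN1A at 220 RPKM. That order depends on the length used, since the treated means were 874 CPM for CDKN2A and 671 CPM for CDKN1A. The exons of CDKN2A cover 4329 bases, but its longest transcript has 1283 (3050 and 2267 for CDKN1A). CDKN2A is often deleted in pancreatic cancer and its cell lines, and whether these cells are SW1990 was not tested, so its level holds for the cells as labelled. The gene encodes INK4A and, from another reading frame, ARF, whose reads the gene count pools. Its level was 878, 825 and 737 CPM without the inhibitor, against 958, 816 and 847 CPM with it. The groups overlapped (0.10 ± 0.10, edgeR adjusted p = 0.478). After the correction the value was -0.27 ± 0.09 (edgeR adjusted p = 0.0511), which passed the threshold without control replicate 2 or 3 (0.0296 and 0.0302). Its neighbour CDKN2B, 7.60 kb away on chromosome 9, went from 38.3 ± 2.48 to 36.5 ± 2.77 CPM (mean ± SD, n = 3 per group), and was not called before or after the correction.

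The correction moved CDKN2C and CDKN2D further from 0. CDKN2C measured 70.2, 71.0 and 63.7 CPM in control libraries, against 53.5, 50.5 and 54.3 CPM after EPZ-5676 (-0.37 ± 0.11, edgeR adjusted p = 0.0105). The groups did not overlap, and only leaving out treated replicate 2 lost the call (0.0537). With the correction it was -0.67 ± 0.09 (edgeR adjusted p = 4.9e-05), among the lowest corrected values of the members, and held without each library. CDKN2D measured 41.0, 42.8 and 40.3 CPM in control libraries, against 36.2, 40.1 and 27.7 CPM after EPZ-5676. Treated replicate 2 lay just under the lowest control, and the gene was not called (-0.26 ± 0.13, edgeR adjusted p = 0.146). With the correction it was called lower (-0.62 ± 0.12, edgeR adjusted p = 0.00177), and again without each library. Their transcripts are GC-rich (58.1% and 61.3%), in a range where most called genes were higher.

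**Figure D3:**
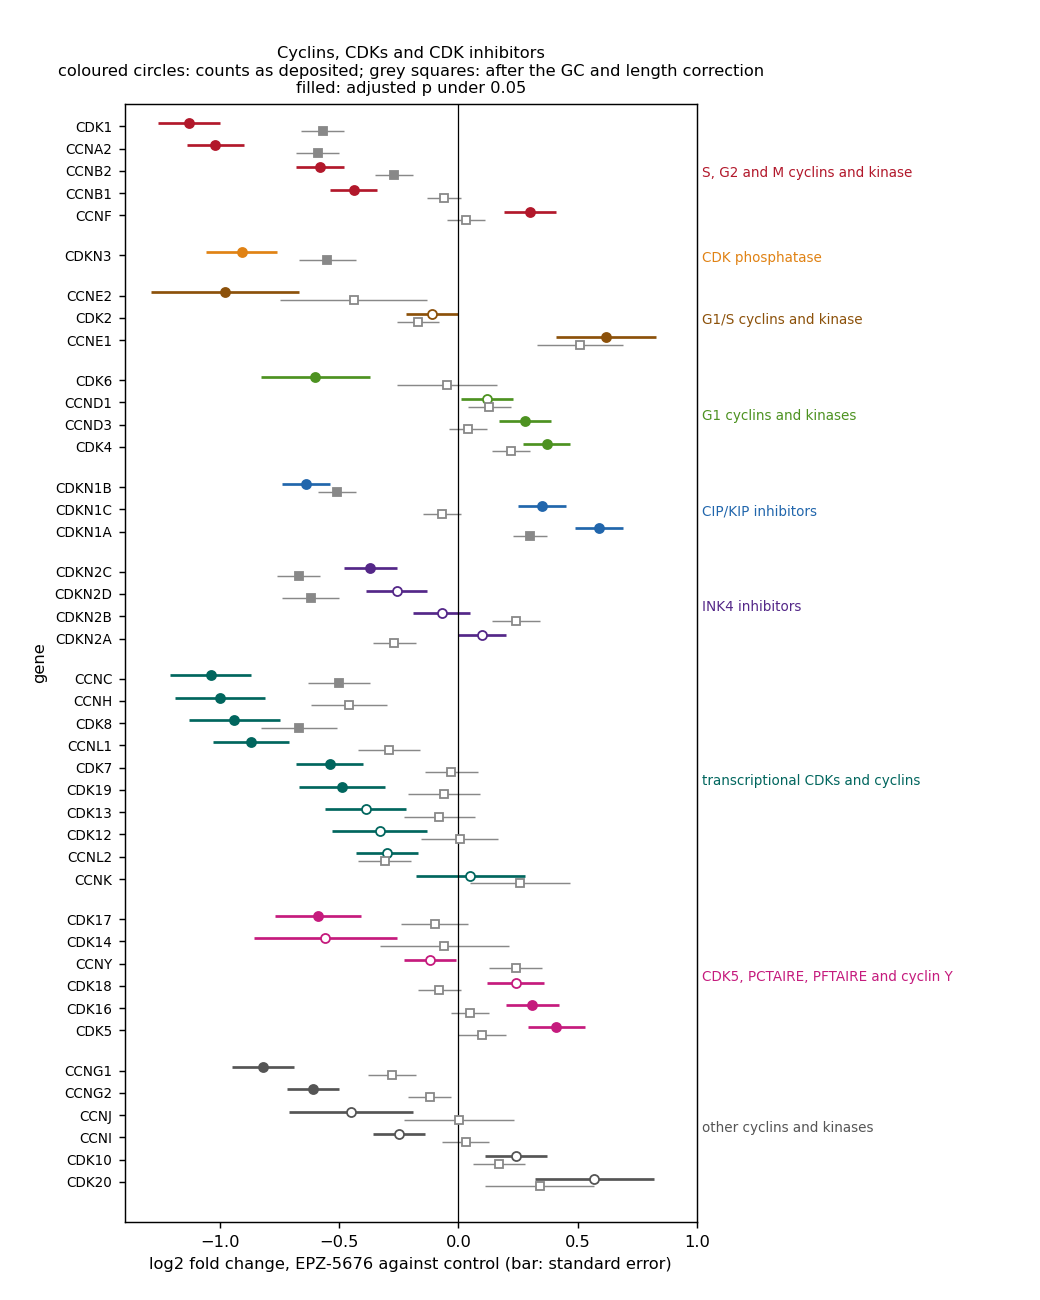
Log2 fold change of EPZ-5676 against control with its standard error for the 42 tested members, grouped by role, from the counts as deposited (coloured circles) and after the GC and length correction (grey squares); filled symbols passed an adjusted p under 0.05. Most grey squares lie nearer to 0 than the circles, while those of CDKN2C and CDKN2D lie farther to the left.

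Of the 10 cyclins and CDKs that act in transcription, 6 fell and the others were not called. Their median GC content was 43.3%. Among all genes tested 18.7% were called lower, and 39.1% of those with a GC content between 40% and 45%. The CDK-activating kinase, which holds cyclin H, CDK7 and the assembly factor MNAT1, phosphorylates CDKs and, within TFIIH, RNA polymerase II. CCNH measured 12.6, 12.7 and 13.2 CPM in control libraries, against 4.99, 7.13 and 7.05 CPM after EPZ-5676 (-1.0 ± 0.19, edgeR adjusted p = 0.000694). Its kinase CDK7 measured 50.8, 39.1 and 35.4 CPM in control libraries, against 27.3, 26.4 and 32.5 CPM after EPZ-5676 (-0.54 ± 0.14, edgeR adjusted p = 0.00664). MNAT1, which is not one of the 43 genes, went from 16.6 ± 4.04 to 8.30 ± 1.81 CPM (-1.0 ± 0.20, edgeR adjusted p = 0.00112). Every treated library was under every control for all 3. None of the 3 was called after the correction (edgeR adjusted p = 0.0711, 0.891 and 0.0882), and CDK7 was not called without control replicate 1 (0.0622).

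The Mediator kinase module joins cyclin C to CDK8 or its paralog CDK19. CCNC measured 34.5, 24.0 and 24.8 CPM in control libraries, against 12.6, 12 and 16.0 CPM after EPZ-5676 (-1.04 ± 0.17, edgeR adjusted p = 0.000236). CDK8 measured 12.2, 10.4 and 12.1 CPM in control libraries, against 5.89, 6.84 and 5.39 CPM after EPZ-5676 (-0.94 ± 0.19, edgeR adjusted p = 0.00112). For both, every treated library lay well under the lowest control. CDK19 measured 12.4, 9.44 and 11.9 CPM in control libraries, against 7.44, 7.75 and 8.82 CPM after EPZ-5676 (-0.49 ± 0.18, edgeR adjusted p = 0.0443), a call lost without any library other than control replicate 2 (up to 0.164). After the correction CCNC (-0.50 ± 0.13, edgeR adjusted p = 0.0161) and CDK8 (-0.67 ± 0.16, edgeR adjusted p = 0.00991) were still called lower and CDK19 was not (-0.06 ± 0.15). The corrected calls were lost without control replicate 1 or treated replicate 2 for CCNC (0.0896 and 0.0914) and without treated replicate 3 for CDK8 (0.0536). The CDK8/CDK19 read ratio was 0.986, 1.10 and 1.01 in control libraries, against 0.792, 0.882 and 0.610 after EPZ-5676, without overlap.

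In the elongation and splicing branch, CCNL1 fell and the other 4 genes were not called. CDK12, which with cyclin K phosphorylates elongating RNA polymerase II at long and DNA repair genes, measured 13.3, 15.3 and 21.1 CPM in control libraries, against 9.59, 16.0 and 14.1 CPM after EPZ-5676. It was not called (-0.33 ± 0.20, edgeR adjusted p = 0.211), nor were its paralog CDK13 (-0.39 ± 0.17, 16.4 ± 1.04 to 12.5 ± 2.07 CPM) and their cyclin CCNK (0.05 ± 0.23, 7.07 ± 2.24 to 7.30 ± 0.283 CPM). The groups of CDK13 did not overlap. CCNL1, a cyclin of the splicing-associated CDK11 kinases, measured 24.4, 17.5 and 24.9 CPM in control libraries, against 11.2, 12.7 and 12.6 CPM after EPZ-5676 (-0.87 ± 0.16, edgeR adjusted p = 0.000733; -0.29 ± 0.13 and 0.152 after the correction). Its paralog CCNL2 (56.9 ± 5.72 to 46.4 ± 7.90 CPM) was not called (-0.30 ± 0.13, edgeR adjusted p = 0.0809), except without control replicate 2 (0.0401, and 0.0333 with the correction). The corrected values of CCNL1 and CCNL2 were alike (-0.29 and -0.31), whereas the ratio of their reads was 0.389 ± 0.0380 in the controls and 0.266 ± 0.0308 in the treated libraries (mean ± SD, n = 3 each). Their transcripts differ in GC content (35.2% and 50.8%).

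Of CDK5, the PCTAIRE and PFTAIRE kinases and cyclin Y, 6 genes in all, 2 were called higher and 1 lower. Among all genes tested the shares were 15.0% and 18.7%. These kinases are known for roles in neurons, vesicle transport and Wnt signalling rather than in the division cycle. CDK16, the most abundant CDK of the list per length (55.9 RPKM in the controls), measured 319, 410 and 366 CPM in control libraries, against 490, 444 and 426 CPM after EPZ-5676 (0.31 ± 0.11, edgeR adjusted p = 0.0294). CDK5 measured 49.7, 46.8 and 39.6 CPM in control libraries, against 64.7, 56.9 and 59.1 CPM after EPZ-5676 (0.41 ± 0.12, edgeR adjusted p = 0.0101). The groups of both were separate. CDK5 overlaps SLC4A2 on the other strand, which had 46608 reads against 11431, and the strand setting of the counting is not given, so reads of the overlap cannot be told apart. The same holds for CCNA2 with EXOSC9 (4306 against 14149 reads), CCNH with RASA1 (1272 against 2122), CCND1 with LTO1 (2656 against 9581), CDK2 with PMEL (1337 against 13222), CDK4 with MARCH9 (7208 against 37950) and TSPAN31 (3823), and CCNK with CCDC85C (12804 against 1554). It also holds for CDK10 with SPATA2L (5297 against 6483 reads) and CCNJ with ENTPD1-AS1 (406 against 877). CDK14 overlaps CLDN12 on its own strand (2976 against 653 reads), where strand does not separate them. CDK17 measured 23.4, 15.7 and 19.5 CPM in control libraries, against 9.98, 14.6 and 14.4 CPM after EPZ-5676 (-0.59 ± 0.18, edgeR adjusted p = 0.0165). The highest treated library was close to the lowest control.

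None of those 3 calls held after the correction (0.05 ± 0.08, 0.10 ± 0.10 and -0.10 ± 0.14 for CDK16, CDK5 and CDK17; edgeR adjusted p = 0.722, 0.600 and 0.703). CDK16 was also lost without control replicate 1 or 3 or treated replicate 1 or 2 (up to 0.127), CDK5 without control replicate 3 or treated replicate 1 (up to 0.0722), and CDK17 without control replicate 1 or 3 or treated replicate 1 (up to 0.118). CDK18 (42.1 ± 5.36 to 49.8 ± 3.96 CPM), CDK14 (3.52 ± 1.06 to 2.38 ± 0.565 CPM) and CCNY, the cyclin that recruits CDK14 and CDK16 to membranes (53.9 ± 0.116 to 49.6 ± 5.46 CPM), were not called. CDK18 was called higher without control replicate 2 (0.0414).

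Among the remaining cyclins and kinases CCNG1 and CCNG2 fell. CCNG1, a p53 target, measured 57.3, 42.1 and 48.1 CPM in control libraries, against 25.6, 30.1 and 27.8 CPM after EPZ-5676 (-0.82 ± 0.13, edgeR adjusted p = 0.000226). CCNG2, which is induced in cells leaving the cycle, measured 77.3, 62.5 and 68.9 CPM in control libraries, against 42.6, 48.0 and 46.2 CPM after EPZ-5676 (-0.61 ± 0.11, edgeR adjusted p = 0.000616). Neither had overlapping groups, and neither was called after the correction (-0.28 ± 0.10 and -0.12 ± 0.09; edgeR adjusted p = 0.0662 and 0.400). CDKN1A, another p53 target, therefore moved in the opposite direction to CCNG1. The corrected values still differed in sign (0.30 for CDKN1A and -0.28 for CCNG1), although only CDKN1A was then called. Their transcripts differ in GC content (58.1% for CDKN1A and 38.2% for CCNG1). CCNI (167 ± 24.4 to 141 ± 5.80 CPM), CCNJ (4.60 ± 0.882 to 3.36 ± 0.577 CPM), CDK10 (27.5 ± 0.887 to 32.5 ± 3.97 CPM) and CDK20 (3.95 ± 0.601 to 5.86 ± 1.53 CPM) were not called, although CCNI was called lower without control replicate 1 (0.0188).

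Ratios between related genes within a library are free of scaling between libraries. Of 12 such pairs, 7 showed no overlap between the groups: CCNE1/CCNE2, CDKN1A/CDKN1B, CDK4/CDK6, CDK16/CDK17, CCNG1/CCNG2, CDK8/CDK19 and CCNL1/CCNL2. No such share was counted over other gene pairs. Among all single genes tested, 21.8% were higher and 24.2% lower without overlap. GC content differed widely within some pairs (57.0% and 40.9% for CDK16 and CDK17) and little within others (45.3% and 42.4% for CDK8 and CDK19). With 3 against 3 an exact two-sided permutation test cannot go under 0.1, so these ratios are given without a test. The CDK16/CDK17 ratio was 13.6, 26.1 and 18.7 in the controls and 49.1, 30.3 and 29.7 in the treated libraries. After the correction the log2 differences were 0.95 for CCNE1/CCNE2, 0.81 for CDKN1A/CDKN1B and -0.61 for CDK8/CDK19. They were smaller in size for CDK4/CDK6 (0.28), CDK16/CDK17 (0.16), CCNG1/CCNG2 (-0.15) and CCNL1/CCNL2 (0.02).

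**Figure D4:**
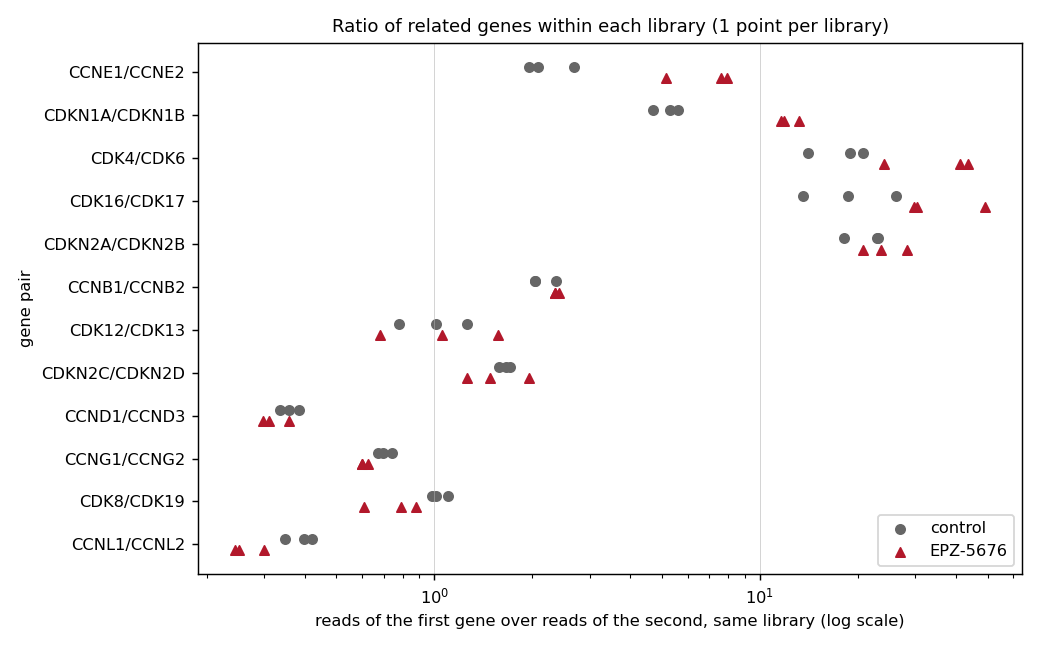
Reads of the first gene divided by reads of the second in the same library (horizontal log axis) for 12 pairs of related members (vertical axis), with 1 point per control library (grey circles) or EPZ-5676 library (red triangles). CCNE1/CCNE2 and CDKN1A/CDKN1B show the widest gaps between groups.

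The enzymes that switch CDKs on or off were read from a separate list. Of 9 tested, 3 were lower before the correction and 3 after it, and only CDC25C was among both. Over all genes, 18.7% were called lower before the correction and 5.57% after it. CDC25C, the phosphatase that activates CDK1, went from 28.8 ± 4.67 to 17.4 ± 1.54 CPM (mean ± SD, n = 3 each; -0.72 ± 0.15, edgeR adjusted p = 0.00137; -0.58 and 0.00398 after the correction). WEE1, the kinase that inhibits CDK1, fell too (-0.64 ± 0.14, edgeR adjusted p = 0.00155; -0.08 and 0.698 after the correction), and the other was MNAT1. The phosphatase CDC25B (0.10 ± 0.11) and the mitotic kinase PLK1 (0.17 ± 0.11) were the most expressed genes not called. The others lower after the correction, named for that call after their values were seen, were the CDK1-inhibiting kinase PKMYT1 (0.01 as deposited and -0.46 corrected, edgeR adjusted p = 0.00067) and the phosphatase CDC25A (-0.35 and -0.41, edgeR adjusted p = 0.0364 corrected). Of 21 CDK and cyclin binding proteins, 3 were higher and 6 lower (2 and 2 after the correction). All genes gave 15.0% higher and 18.7% lower (5.40% and 5.57% after the correction). CDKN2AIP (-1.07 ± 0.20), CACUL1 (-0.61 ± 0.15) and the centrosome protein CDK5RAP2 (-0.51 ± 0.13) fell. SERTAD1, which binds CDK4 (0.57 ± 0.11), the Mediator subunit MED12 (0.39 ± 0.13) and CDK2AP2 (0.36 ± 0.13) rose. After the correction the calls of CACUL1, MED12 and CDK2AP2 were lost (edgeR adjusted p = 0.655, 0.189 and 0.66). SERTAD1 (0.42), CDKN2AIP (-0.73) and CDK5RAP2 (-0.31) were still called, and CDK5RAP1, named after its value was seen, was called higher (0.35, edgeR adjusted p = 0.0152). CDC37 (0.17 ± 0.10) and CINP (0.02 ± 0.11) were the most expressed genes not called.

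Of 19 ubiquitin ligase genes that act on cyclins or CDK inhibitors, 3 were higher and 8 lower before the correction, and after it 1 was lower. The shares over all genes were 15.0% higher and 18.7% lower, and 5.40% and 5.57% after the correction. DTL, the substrate adaptor that targets p21 in S phase, fell from 41.1 ± 7.78 to 19.0 ± 3.00 CPM (-1.11 ± 0.16, edgeR adjusted p = 7.6e-05; -0.67 and 0.000580 after the correction). The APC/C inhibitor FBXO5 (-0.97 ± 0.18) and the cullin CUL4A (-0.50 ± 0.11) fell, and the APC/C activator FZR1 (0.48 ± 0.10), RNF123 (0.43 ± 0.12), which acts on p27, and DDB1 (0.36 ± 0.10) rose. DTL was the gene still called after the correction, so the calls of the other 5 named here were lost. CDC20 (0.14 ± 0.10) and UBAC1 (0.23 ± 0.10) were not called. Among 20 genes of the RB pathway, 1 was higher and 7 lower (3 lower after the correction), to be read beside the same shares of all genes. E2F1 rose (0.50 ± 0.11), and MYBL2, which works with MuvB at the promoters of mitotic genes, fell from 869 ± 55.2 to 667 ± 86.5 CPM (-0.38 ± 0.11, edgeR adjusted p = 0.00987; -0.75 and 4.4e-06 after the correction). TFDP2 (-0.50 ± 0.14) and E2F7 (-0.48 ± 0.15) fell. The calls of E2F1, TFDP2 and E2F7 were lost after the correction (edgeR adjusted p = 0.486, 0.103 and 0.68). E2F2, named after its value was seen, was lower before it (-0.47, edgeR adjusted p = 0.0237) and after it (-0.73, edgeR adjusted p = 0.000658). TFDP1 (-0.12 ± 0.10) was not called, and FOXM1 (-0.09 ± 0.12) was called only after the correction (-0.30, edgeR adjusted p = 0.0426).

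Among 15 proliferation markers 7 were lower and 2 higher (5 lower after the correction), with a median log2 fold change of -0.33. Over all genes 18.7% were lower and 15.0% higher (5.57% and 5.40% after the correction), with a median of -0.05 before it. BUB1 (-0.90 ± 0.14), PCNA (-0.55 ± 0.10) and TPX2 (-0.56 ± 0.10) fell, the replication helicase subunits MCM2 (0.33 ± 0.10) and MCM5 (0.29 ± 0.11) rose, and BIRC5 (-0.06 ± 0.10) and MCM7 (0.15 ± 0.10) were not called. BUB1 (-0.48), PCNA (-0.26) and TPX2 (-0.37) were still called after the correction, while MCM2 and MCM5 were not (edgeR adjusted p = 0.811 and 0.84). Of 14 other cyclins and CDKs tested, 4 were higher and 3 lower (2 and 1 after the correction), to be read beside the same shares of all genes. CDK9 (0.52 ± 0.10), CCNO (0.67 ± 0.15) and CCNJL (0.80 ± 0.23) rose, while CCNT2 (-1.22 ± 0.24), CCNT1 (-0.66 ± 0.17) and CCNB1IP1 (-0.34 ± 0.10) fell. The kinase of positive elongation factor b, CDK9, and its cyclins thus moved in opposite directions. After the correction CDK9 (0.32) and CCNJL (0.78) were still called higher and CCNT2 (-0.64, edgeR adjusted p = 0.0496) lower, and the calls of CCNO, CCNT1 and CCNB1IP1 were lost (edgeR adjusted p = 0.241, 0.479 and 0.301). CDK11B (-0.03 ± 0.11) and CCNDBP1 (-0.12 ± 0.12) were the most expressed genes not called.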

How the data were processed

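Polyadenylated RNA was sequenced from 3 control and 3 EPZ-5676 libraries, grouped by their titles. HISAT2 2.2.1 and the build GRCh38 are named in the list of tools per the submitters' processing notes; second strands were made with dUTP, per the labels' protocols. The authors deposited raw, whole-number read counts per gene; the program that counted, its strand option and its gene models are not named in the sources used here. All 58735 genes had the coordinates of GENCODE release 29, which gave GC content and length of the longest transcript, and the deposited gene lengths, used for RPKM, equalled the union of its exons.

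The test was run in R 4.3.3 with edgeR 4.0.16 (filterByExpr with a minimum count of 10, TMM scaling, robust quasi-likelihood test, two-sided, Benjamini-Hochberg adjusted p under 0.05), and 15496 genes were tested with a common dispersion of 0.0301. The SE is the log2 fold change divided by the square root of F. CPM used TMM-scaled library sizes. The script was tested on simulated data. For the correction, natural splines with 5 degrees of freedom in GC content and in log length were fitted per library to deviations of log2 CPM (prior count 2) and entered as offsets. Alternatives included DESeq2 1.42.0 and limma-voom (limma 3.58.1). All 43 members are named, with values in each library for called members and 10 core genes. From each pathway list at most 3 called genes per direction with the smallest p and the 2 most expressed genes not called are named. The members, lists and correction were chosen with earlier results of these data known. Figures were drawn with matplotlib 3.10.9 in Python 3.11.15.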

Additional observations from a re-analysis of the deposited data

How the results depend on the processing

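Alternatives were normalization by DESeq2's size factors or upper quartiles, no filter, a filter of 1 CPM, DESeq2, limma-voom and protein-coding genes alone. They gave 6 to 8 members higher, 16 to 18 lower and a member median of -0.35 to -0.31. Over all genes tested they gave 2213 to 2764 higher, 2637 to 2946 lower and a median of -0.10 to -0.01. The correction for GC content and length moved most. It called 837 of all genes higher and 863 lower, 1 member higher and 9 lower, with a member median of -0.07. The part of GC content in the treatment effect was not tested.

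Leaving out 1 library gave 1350 to 2780 genes higher and 1753 to 3167 lower, 2 to 9 members higher and 14 to 19 lower, and a member median of -0.39 to -0.31. With the correction, leaving out 1 library gave 396 to 857 genes higher and 512 to 815 lower, 0 to 1 members higher, 7 to 10 lower, and a median of -0.10 to -0.06. The 0 came from edgeR without treated replicate 2, where 3 members were higher at an unadjusted p under 0.05.

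Same-numbered control and treated libraries did not deviate together (correlations of -0.111, -0.0927 and 0.0466, against -0.0799 to 0.155 for unlike numbers). These correlations cannot exclude that the numbers pair the libraries. With the replicate number as a block, 5 members were higher and 16 lower, and 1677 genes were higher and 2219 lower. With the block and the correction, 688 genes were higher and 685 lower, 1 member higher and 9 lower, and the median was -0.08.

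The sign of 14 members turned under some alternative, and the cause was not tested. Each is given as deposited with its range over fits without 1 library, then after the correction, with the block added, and over corrected fits without 1 library. CCND3 was 0.28 (0.19 to 0.35), then 0.04, 0.04 and -0.01 to 0.08. CCNI was -0.25 (-0.34 to -0.14), then 0.03, 0.04 and -0.12 to 0.13. CCNJ was -0.45 (-0.58 to -0.33), then 0.0032, 0.0035 and -0.08 to 0.10. CCNK was 0.05 (-0.18 to 0.23), then 0.26, 0.30 and 0.01 to 0.41. CCNY was -0.12 (-0.21 to -0.06), then 0.24, 0.23 and 0.08 to 0.33. CDK6 was -0.60 (-0.88 to -0.44), then -0.05, -0.08 and -0.30 to 0.14. CDK7 was -0.54 (-0.65 to -0.36), then -0.03, -0.03 and -0.13 to 0.05. CDK12 was -0.33 (-0.48 to -0.12), then 0.0046, 0.0027 and -0.16 to 0.14. CDK13 was -0.39 (-0.48 to -0.26), then -0.08, -0.10 and -0.25 to 0.06. CDK14 was -0.56 (-0.75 to -0.34), then -0.06, -0.05 and -0.19 to 0.13. CDK18 was 0.24 (0.15 to 0.34), then -0.08, -0.08 and -0.12 to -0.04. CDKN1C was 0.35 (0.30 to 0.42), then -0.07, -0.07 and -0.11 to -0.02. CDKN2A was 0.10 (0.03 to 0.17), then -0.27, -0.26 and -0.33 to -0.15. CDKN2B was -0.07 (-0.13 to -0.02), then 0.24, 0.24 and 0.20 to 0.27. CCNK turned only without control replicate 1, in the counts as deposited.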

Other observations

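Some members lie near each other in the genome, and whether other genes lie between them was not examined. CCNI and CCNG2 lie 81.1 kb apart on chromosome 4, where CCNG2 was called lower (-0.61) and CCNI was not (-0.25). CCNB1 and CDK7 lie 56.5 kb apart on chromosome 5, and both were called lower (-0.44 and -0.54 on the log2 scale).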
